A study of Mus musculus with 12 samples.

Results

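Interferon-stimulated genes are the genes that cells switch on when an interferon reaches its receptor, and many of their products block viruses and other intracellular microbes. A set of 43 such genes was followed here in mouse visceral white adipose tissue. They were taken by gene symbol from a list of names. All 43 were present among the 50559 genes counted in each library, and all 43 passed the filter on low counts that left 16550 genes for testing.

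Type I interferons bind the receptor made of IFNAR1 and IFNAR2, and interferon gamma binds IFNGR1 and IFNGR2. Receptor-bound JAK kinases then activate transcription factors. Those activated by type I interferon, with STAT2 and IRF9 among them, bind the interferon-stimulated response element of target promoters, and those activated by interferon gamma bind the gamma-activated sequence. In adipose tissue the genes are expressed by adipocytes, stromal cells and resident immune cells, and interferon signalling there has been studied in relation to obesity.

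The study crossed a cardiac TGF-beta1 transgene with a high-fat diet and sequenced RNA of the visceral white fat of mice of the FVB/N strain in 12 libraries, 3 in each of 4 groups. Every group carried alphaMHC tTA, a tetracycline transactivator driven by the cardiac alpha myosin heavy chain promoter. The 6 wild-type libraries carried this driver alone, and the 6 transgenic libraries carried it together with alphaMHC TGFb, which directs TGF-beta1 over-expression to the heart. RNA of fat cannot check a transcript made in the heart. Within each genotype, 3 libraries came from mice on normal chow with 17% of calories from fat and 3.1 kcal per g, and 3 from mice on a diet with 60% of calories from fat and 5.21 kcal per g. High-fat feeding began at 8 to 10 weeks of age and lasted 2 or 6 weeks, and the labels do not say which duration applied to which library. Controls were littermates. The labels do not state that the 3 libraries of a group came from separate mice, so p-values reflect only the scatter among these libraries, which may be technical. Values for a group are given in the order of replicates 1, 2 and 3, which carries no other meaning.

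Gene counts ran from 20101240 to 21337312 per library, so counting error was small for all but the least abundant genes. Adipocyte genes, which define the labelled tissue, were abundant in every library: Adipoq ran from 3069.8 to 5466 CPM (read counts scaled to a common library size) and Fabp4 from 7460.4 to 11583 CPM over the 12 libraries. A few libraries held transcripts of other tissues. Summed liver genes stood at 320.0 CPM in wild-type high-fat replicate 2 and at no more than 63.7 CPM elsewhere. Summed epithelial genes stood at 221 CPM in transgenic control replicate 2 and 32.7 CPM in wild-type control replicate 1, and at no more than 8.10 CPM in the others. Summed muscle genes stood at 572 CPM in wild-type high-fat replicate 3 and 754 CPM in transgenic control replicate 3, and at no more than 115 CPM in the others.

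Promoter sequences are shown because many of them carry motifs through which interferons act on these genes, and because some families hold them more often than others. RefSeq promoter windows of the GRCm38.p6 assembly, 250 bases before to 50 bases after a gene's start, were matched for 34 of the 43 genes. The core of the interferon-stimulated response element, GAAANNGAAA on either strand and with overlapping matches counted, was found in 18 of the 34 (52.9%) and in 3.99% of the promoters of 27025 genes. The core of the gamma-activated sequence, TTCNNNGAA, which reads the same on both strands, was found in 11 of the 34 (32.4%) and in 9.55% of the 27025. Both were found in 7 of the 34 (20.6%) and in 0.614% of all, and 12 of the 34 held neither. All 4 guanylate-binding protein genes and all 3 immunity-related GTPase genes with a window held the response element, against 0 of the 3 antigen-processing genes. The windows of Tap1 and Psmb9 cover mostly the same bases on opposite strands, and those of Igtp and Irgm2 are closely alike. These family counts therefore rest on fewer separate sequences than genes. A match describes the letters in this window and was not a measurement of binding.

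The stretches shown run from 150 bases before to 10 bases after the start and are read 5′ to 3′ on the gene's own strand, with motif matches in capitals. Igtp (chr11:58199406-58199565, + strand) and Irgm2 (chr11:58214827-58214986, + strand), neighbouring immunity-related GTPase genes, each hold a gamma-activated sequence closely followed by a response element; the first bases of these lie at -45 and -34 in Igtp and at -75 and -64 in Irgm2.
Igtp: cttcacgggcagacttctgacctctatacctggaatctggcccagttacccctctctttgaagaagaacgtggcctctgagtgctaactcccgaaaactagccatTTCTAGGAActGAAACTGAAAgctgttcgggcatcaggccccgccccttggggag
Irgm2: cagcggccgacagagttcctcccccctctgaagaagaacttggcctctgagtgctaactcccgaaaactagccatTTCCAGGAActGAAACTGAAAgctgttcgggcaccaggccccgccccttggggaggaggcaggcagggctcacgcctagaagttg
Gbp7 (chr3:142530186-142530345, + strand), a guanylate-binding protein gene, holds 2 gamma-activated sequences and, nearer its start, 1 response element on the opposite strand.
Gbp7: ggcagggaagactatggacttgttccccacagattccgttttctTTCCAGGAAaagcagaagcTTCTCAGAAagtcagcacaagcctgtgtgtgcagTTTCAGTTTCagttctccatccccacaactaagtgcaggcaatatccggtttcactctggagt
Ifit1 (chr19:34640739-34640898, + strand) and Isg15 (chr4:156200809-156200968, - strand), targets of type I interferon, hold response elements and no gamma-activated sequence: 2 separate matches in Ifit1 and 3 overlapping matches in Isg15.
Ifit1: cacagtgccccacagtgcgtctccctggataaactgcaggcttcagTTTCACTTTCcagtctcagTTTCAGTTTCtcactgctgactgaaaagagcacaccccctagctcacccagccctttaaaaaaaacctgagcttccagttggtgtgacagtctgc
Isg15: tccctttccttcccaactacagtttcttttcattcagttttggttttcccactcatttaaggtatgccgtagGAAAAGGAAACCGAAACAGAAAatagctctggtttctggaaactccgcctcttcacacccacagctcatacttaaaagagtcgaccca
Irf1 (chr11:53769864-53770023, + strand), a transcription factor gene induced by interferon gamma, holds a gamma-activated sequence only.
Irf1: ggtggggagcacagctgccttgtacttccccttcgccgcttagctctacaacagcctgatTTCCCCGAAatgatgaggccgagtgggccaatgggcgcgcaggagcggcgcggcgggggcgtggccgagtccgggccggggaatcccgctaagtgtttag
Bst2 (chr8:71537463-71537622, - strand) and Oasl2 (chr5:114896784-114896943, + strand) are shown because they had the smallest p-values for diet in transgenic tissue; Bst2 holds both motifs in an overlapping run, and Oasl2 holds neither in its window.
Bst2: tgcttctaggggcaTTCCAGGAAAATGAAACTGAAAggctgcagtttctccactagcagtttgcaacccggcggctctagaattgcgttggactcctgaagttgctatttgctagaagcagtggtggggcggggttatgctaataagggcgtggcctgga
Oasl2: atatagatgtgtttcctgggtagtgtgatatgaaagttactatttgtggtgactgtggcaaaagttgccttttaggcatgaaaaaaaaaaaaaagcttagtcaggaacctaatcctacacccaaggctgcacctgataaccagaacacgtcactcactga

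The genes spanned more than 3 orders of magnitude in level. Per kb of annotated exon, Lgals3bp, which encodes a secreted galectin-binding glycoprotein, was the most abundant at 93.1 CPM per kb averaged over the 12 libraries. Gbp2, a guanylate-binding protein gene, followed at 53.0 CPM per kb, and Bst2, whose product tetherin holds budding virus at the cell surface, at 52.4 CPM per kb. The lowest were Oas3 at 0.0639, Mx1 at 0.189 and Ifi44 at 0.332 CPM per kb. Levels also differed within families: the group of IFIT, OAS and related nucleic acid binders ran from Oas3 up to Ifit3 at 9.04 CPM per kb, and the 4 guanylate-binding protein genes from Gbp5 at 2.46 to Gbp2.

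**Figure D1:**
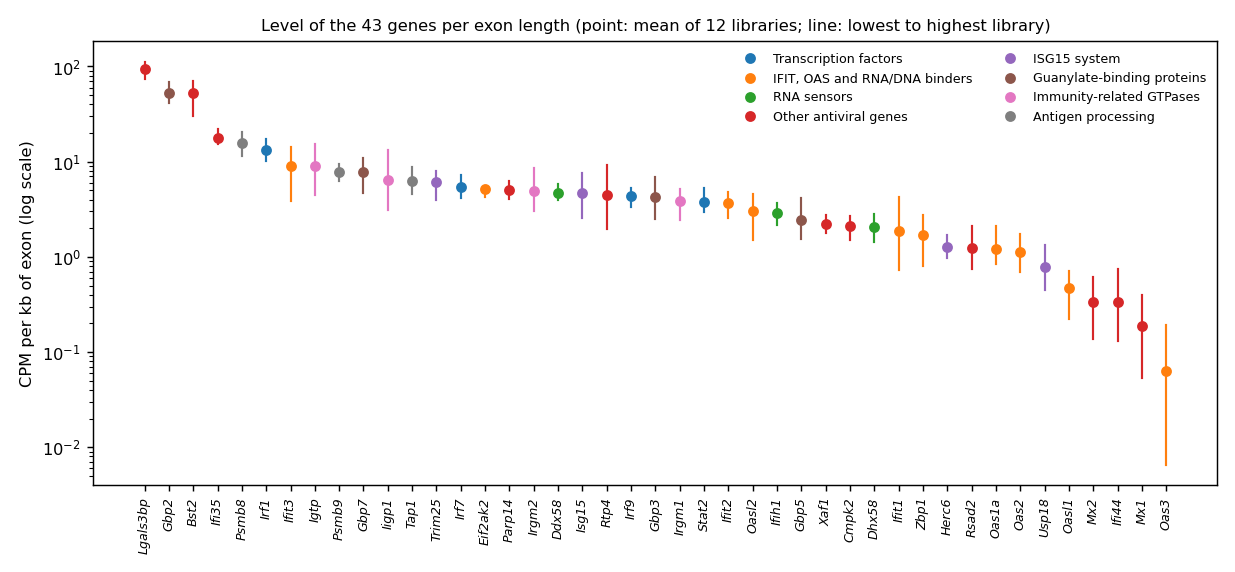
Levels of the 43 genes in CPM per kb of exon on a log axis, ordered from highest to lowest and coloured by role; points are means of 12 libraries and lines run from the lowest to the highest library. Lgals3bp stands at 93.1 CPM per kb and Oas3 at 0.0639 CPM per kb.

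Near-identical copies and overlapping genes make a few values uncertain. Over 50-base windows of its exons, Ifit3 shared 51.2% with Ifit3b, and Oas1a shared 57.6% with Oas1g and Oas1b. Herc6 shared 23.8% of its windows with the predicted gene Gm45193, which overlaps it on the same strand. Predicted genes on the same strand also overlap 13.89% of the exon bases of Rtp4 and 11.35% of those of Gbp7. Igtp and Irgm2 overlap on the same strand, with 12.3% of the windows of Igtp shared. Reads from Ifi35 and Psmb8 cannot be told apart from those of opposite-strand neighbours over 16.8% and 14.7% of their exon bases, because the strand setting of the counting is not given in the sources used here.

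The most visible pattern among these genes lay between libraries of the same group. In wild-type high-fat tissue, 38 of the 43 genes were highest in replicate 2, where 29.8% of all tested genes were highest. In transgenic high-fat tissue, 35 of 43 were highest in replicate 2, against 31.2% of all tested genes, and in transgenic control tissue 33 of 43 were highest in replicate 2, against 33% of all. Members in those libraries lay a median of 0.31, 0.33 and 0.24 log2 units above their group means, in that order, while the median over all tested genes was within 0.01 of zero in each. Replicate 3 of the same groups lay low. In transgenic high-fat tissue 35 of 43 genes were lowest in replicate 3, against 36.1% of all tested genes. The count was 31 of 43 in transgenic control tissue (36.4% of all) and 25 of 43 in wild-type high-fat tissue (30.7% of all). The members' median deviations there were -0.31, -0.22 and -0.16, in that order. In wild-type high-fat tissue replicate 1 lay about as low as replicate 3, at -0.14, with 18 of 43 genes lowest. Where most genes are highest in replicate 2, the lowest place falls mostly to replicates 1 and 3. The counts of lowest genes are therefore not separate from the counts of highest genes. Wild-type control tissue showed no such libraries, with 11, 13 and 19 of 43 genes highest and 17, 14 and 12 lowest in replicates 1, 2 and 3. The labels do not say that a replicate number marks a shared day or batch. Over all tested genes, the deviations of replicates 2 of different groups had correlations from -0.07 to 0.03 over 6 pairs. Those of replicates 3 had correlations from -0.11 to 0.27 over 6 pairs. A correlation over all genes cannot show whether these 43 genes deviated together, which was not tested.

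**Figure D2:**
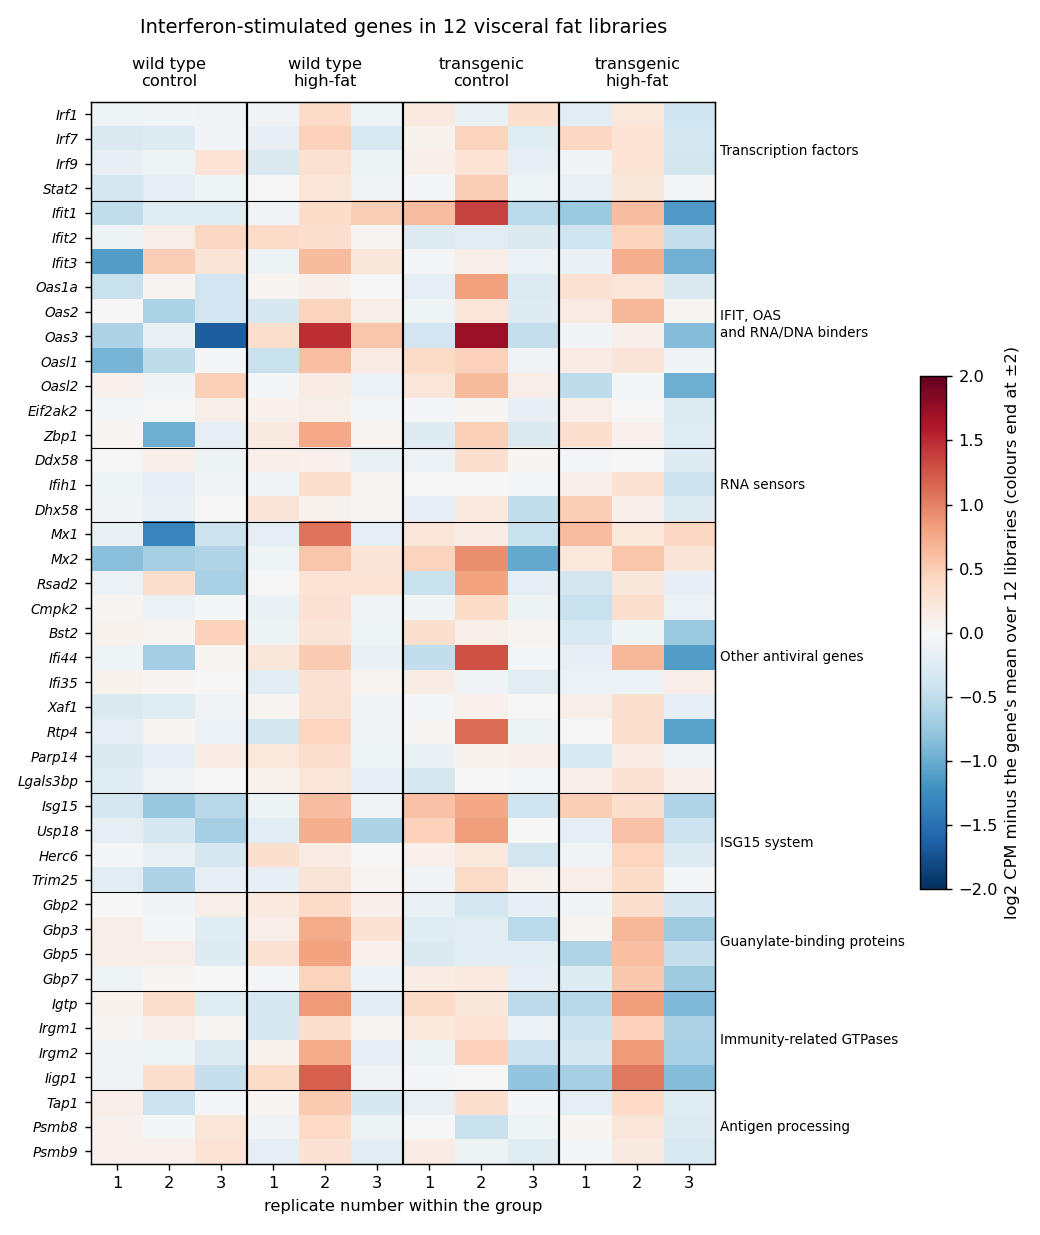
Log2 CPM of each gene minus its mean over the 12 libraries, with genes in rows by role and libraries in columns by group; red is above and blue below the mean, and colours end at 2 log2 units. The columns of replicate 2 in the wild-type high-fat, transgenic control and transgenic high-fat groups are mostly red.

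**Figure D3:**
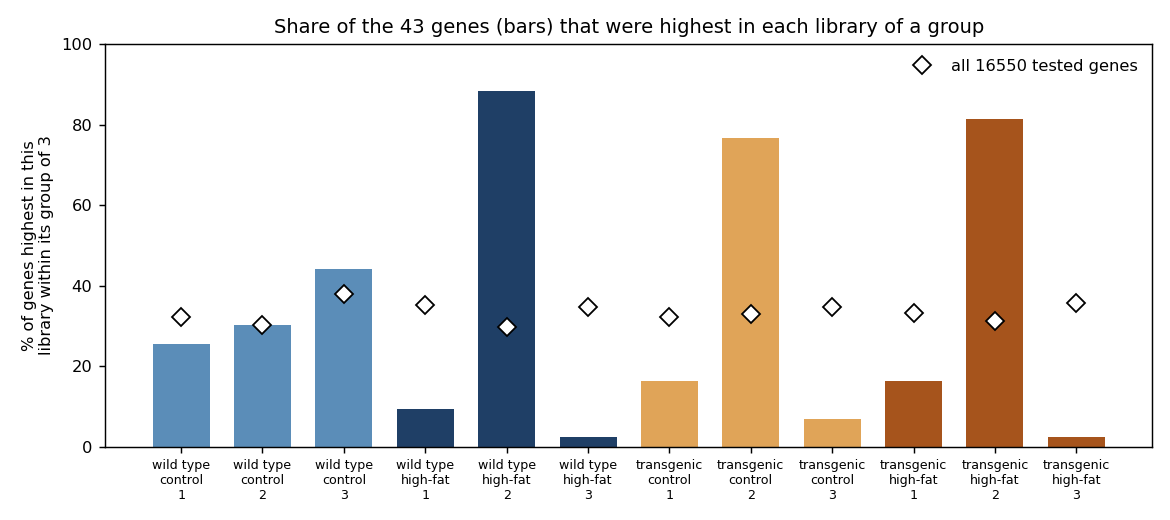
Percentage of genes that were highest in each library within its group of 3; bars stand for the 43 genes and diamonds for all 16550 tested genes. The bar reaches 88.4% in wild-type high-fat replicate 2, 76.7% in transgenic control replicate 2 and 81.4% in transgenic high-fat replicate 2, and the diamonds lie between 29.8% and 37.8%.

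The families took different parts in this pattern. In transgenic control replicate 2 all 10 genes of the IFIT and OAS group were highest in their group, as were all 4 of the ISG15 system and all 3 RNA sensors. The guanylate-binding protein genes lay a median of 0.06 above their mean there and the antigen-processing genes 0.04 below theirs (deviation -0.04). The immunity-related GTPase genes lay 0.23 above theirs, and 3 of the 4 were highest in that library. In the 2 high-fat libraries the largest medians were those of the immunity-related GTPase and guanylate-binding protein genes. The 4 immunity-related GTPase genes lay a median of 0.61 above their group mean in the wild-type library and 0.96 in the transgenic library. The 4 guanylate-binding protein genes lay 0.36 and 0.67 above theirs. Other families lay close to the 0.36 in the wild-type library, with the ISG15 system at 0.34 and the transcription factors and antigen-processing genes at 0.32 each. In the transgenic library the IFIT and OAS group lay at 0.37 and the ISG15 system at 0.34. The transcription factors lay at 0.27 there and the antigen-processing genes at 0.24. A further list of 41 interferon-inducible genes outside the set had 23, 20 and 27 of its genes highest in the wild-type high-fat, transgenic control and transgenic high-fat replicate 2. Whether the families differed between these libraries was not tested.

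Other transcripts moved with these libraries. Wild-type high-fat replicate 2 was the library rich in liver genes, and transgenic control replicate 2 the library richest in epithelial genes. Summed T and NK cell genes stood at 21.7 CPM in transgenic high-fat replicate 2 and lower in the same group, at 6.81 CPM in replicate 1 and 15.1 CPM in replicate 3. They stood at 16.8 CPM in wild-type high-fat replicate 2, where replicates 1 and 3 had 13.6 and 14.9 CPM. Of the 13 T and NK cell genes tested, 10 were highest in transgenic high-fat replicate 2 and 8 in wild-type high-fat replicate 2, but 1 in transgenic control replicate 2. Each of the 14 listed genes, Cd3e and Ncr1 among them, had at least 1 count in every library except Gzmb, which had 0 in wild-type control replicate 3. Macrophage genes did not go the same way: 0 of 12 were highest in transgenic high-fat replicate 2 and 4 of 12 in each of the others. The part of these transcripts in the pattern was not tested.

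Scatter within groups was wide for this set, which was not compared with genes of like level. The pooled standard deviation within groups had a median of 0.338 log2 units over the 43 genes and 0.222 over all tested genes, and 33 of 43 genes lay above the latter. It was smallest for Eif2ak2 (0.12 log2 units), which encodes the RNA-activated kinase PKR, and largest for Oas3 (0.83) and Iigp1 (0.69). Oas3 averaged 0.45 CPM, a level at which counting error is larger.

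Interferon transcripts themselves were at or below what this depth can show. Of 21 interferon genes, 16 had 0 counts in all 12 libraries, and none passed the filter on low counts. Ifng, which encodes interferon gamma, had 19 counts in all, with 1, 1 and 3 in wild-type control, 2, 4 and 2 in wild-type high-fat, 0, 0 and 1 in transgenic control and 1, 3 and 1 in transgenic high-fat tissue. The other interferons had 7 counts together. A count of 0 allows up to 0.149 CPM (3 counts) in the library with the lowest total, for counting error only.

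Receptors and kinases were expressed at readily measured levels. Ifnar1 rose with the high-fat diet in both genotypes, from 46.0, 52.4 and 48.6 to 65.0, 65.6 and 62.9 CPM in wild-type tissue (edgeR log2 fold change 0.40, SE 0.0810, adjusted p = 0.0411). Its transgenic libraries went from 47.6, 52.7 and 50.7 to 64.9, 64.8 and 60.8 CPM (log2 fold change 0.33, SE 0.0810, adjusted p = 0.0264). Of the 9 receptor and kinase genes listed, Ifnar1 was the 1 gene that rose in wild-type tissue, where 1.14% of all tested genes were called. In transgenic tissue, where 8.73% of all were called, 3 of the 9 rose, the others being Ifnar2 (log2 fold change 0.48, SE 0.0868, adjusted p = 0.00734) and Il10rb (log2 fold change 0.55, SE 0.12, adjusted p = 0.0164), the shared chain of the lambda interferon and interleukin 10 receptors. Neither interferon gamma receptor gene was called in either comparison.

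The high-fat diet gave 1 call among the 43 genes when it was compared within genotypes, a fall of Oasl2 in transgenic tissue. In wild-type tissue 0 of 43 genes were called at an adjusted p below 0.05 by edgeR's quasi-likelihood test, where 1.14% of all tested genes were called, and DESeq2 and limma-voom also called 0. At an unadjusted p below 0.05, 5 of 43 genes passed, all of them higher on the high-fat diet, against 18.1% of all tested genes. The 3 libraries of each group did not overlap for 10 of 43 genes, all higher, against 24.9% of all tested genes. The median log2 fold change was 0.26 over the 43 genes and -0.01 over all tested genes, with 37 positive, and the 43-gene median was 0.10 without wild-type high-fat replicate 2. For 27 of the 43, the 95% interval of the change lay within 2-fold in either direction.

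In transgenic tissue 1 of 43 genes was called for diet, where 8.73% of all tested genes were called. At an unadjusted p below 0.05, 3 of 43 passed (25.8% of all tested genes): Oasl2 and Bst2 were lower and Lgals3bp higher on the high-fat diet, and the same 3 genes were those whose libraries did not overlap (27.8% of all). The median was 0.01 over the 43 genes and -0.02 over all tested genes, and it was -0.22 without transgenic high-fat replicate 2 and 0.12 without transgenic control replicate 2. The interval lay within 2-fold for 32 genes. Over both genotypes, 1 of 43 genes was called, Oasl2, against 17.4% of all tested genes, and 6 of 43 passed the unadjusted threshold, 4 higher and 2 lower, against 32.4%. In bulk tissue, fewer cells of a type and less RNA per cell cannot be told apart.

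The cardiac transgene gave no call among these genes. On the control diet 0 of 43 were called by edgeR (0.0363% of all tested genes), 5 of 43 passed at an unadjusted p below 0.05, all higher in transgenic tissue (11% of all), and 6 of 43 did not overlap, 4 higher and 2 lower (14.1% of all). The median of 0.15 became -0.01 without transgenic control replicate 2. On the high-fat diet 0 of 43 were called (0% of all tested genes). There 1 of 43 passed the unadjusted threshold (6.73% of all) and 1 of 43 did not overlap (14% of all), both lower in transgenic tissue. The median was -0.10, and it was 0.05 without wild-type high-fat replicate 2 and 0.04 without transgenic high-fat replicate 3. Without transgenic high-fat replicate 2 the median was -0.34 and 13 of 43 passed the unadjusted threshold. The share of all tested genes at that threshold was not counted in that fit. Over both diets 0 of 43 were called (0% of all), and 3 of 43 passed the unadjusted threshold (12.3% of all). DESeq2 and limma-voom called 0 in each of these 3 comparisons, and the shares of all genes given here are those of edgeR. On the high-fat diet DESeq2 gave an adjusted p to only 2 of the 43 genes, so its 0 covers those 2 alone. The diet effect in transgenic minus that in wild-type tissue, the interaction, gave 0 calls by edgeR, DESeq2 and limma-voom (0% of all by edgeR) and 2 of 43 at the unadjusted threshold (5.61% of all), both negative. Its median was -0.26 over the 43 genes and 0.01 over all tested genes, and 1 library could move it either way: it was -0.06 without wild-type high-fat replicate 2, -0.11 without transgenic high-fat replicate 3, -0.16 without transgenic control replicate 2 and -0.49 without transgenic high-fat replicate 2. In the last case 10 of 43 passed the unadjusted threshold, and the share of all tested genes at it was not counted. The 4 pairwise comparisons share groups, so their results are not independent of each other.

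**Figure D4:**
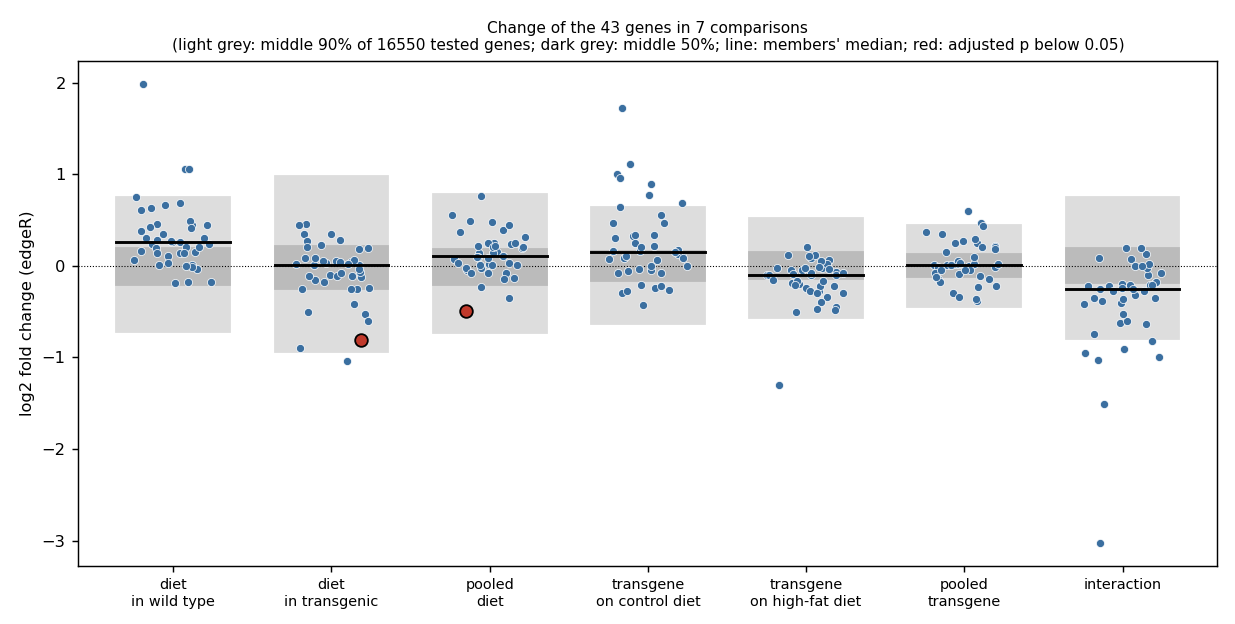
Log2 fold change from edgeR of each of the 43 genes (points) in the 7 comparisons, with the members' median as a line, the middle 90% of the 16550 tested genes in light grey and the middle 50% in dark grey; the larger red points mark an adjusted p below 0.05. The red points are Oasl2, at -0.81 for diet in transgenic tissue and -0.50 for diet in both genotypes together.

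Of the transcription factors that carry the signal, Irf1 was the most abundant, at 49.5, 50.5 and 50.4 CPM in wild-type control and 50.2, 68.7 and 49.5 CPM in wild-type high-fat tissue. It stood at 60.4, 48.2 and 66.2 CPM in transgenic control and 45.1, 61.3 and 40.1 CPM in transgenic high-fat tissue, so that the transgenic groups overlapped (log2 fold change -0.26, SE 0.17, adjusted p = 0.378 for diet). The wild-type control libraries lay close together, and the other groups spread far wider. Irf7, the regulator that amplifies the type I response, ran from 15.5 to 27.5 CPM over the 12 libraries, with overlapping groups in each pairwise comparison. Stat2 had 17.6, 19.6 and 21 CPM in wild-type control tissue, below all 3 wild-type high-fat libraries at 22.3, 26.4 and 21.2 CPM, and none of the 4 regulators was called in any comparison.

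The IFIT and OAS genes, whose products bind foreign RNA, included the gene that was called. Oasl2 (chr5:114896936-114912234 on mm10), an OAS-like gene, stood at 19.9, 18.1 and 26.0 CPM in wild-type control tissue and 18.2, 20.9 and 17.2 CPM in wild-type high-fat tissue. It stood at 22.3, 29.0 and 20.7 CPM in transgenic control and 13.1, 18.5 and 9.47 CPM in transgenic high-fat tissue. Every transgenic high-fat library lay below every transgenic control library, while the wild-type groups overlapped. Mesothelial genes fell in the same comparison: of 6 listed, Krt19, Upk3b and Wt1 were called lower and the median log2 fold change was -1.33. Their summed level was 583, 628 and 581 CPM in transgenic control and 253, 328 and 111 CPM in transgenic high-fat tissue, which puts the 6 libraries in the same order as Oasl2. In wild-type tissue it was 722, 508 and 821 CPM on control and 322, 340.2 and 425 CPM on high-fat diet, and 0 of the 6 were called. The part of mesothelial cells in the fall of Oasl2 was not tested. In transgenic tissue Oasl2 had a log2 fold change of -0.81 (SE 0.22, 95% interval -1.29 to -0.32, adjusted p = 0.0427), and over both genotypes -0.50 (SE 0.16, adjusted p = 0.0462). In wild-type tissue it was -0.19 (95% interval -0.66 to 0.29), and the difference between genotypes was -0.62 (adjusted p = 0.864). The call lies close to the threshold: over 22 alternatives the adjusted p in transgenic tissue ran from 0.00728 to 0.155 and passed in 8. Of the 12 libraries left out singly, the call held without wild-type control replicate 3, transgenic control replicate 3 or transgenic high-fat replicate 2 and was lost without each of the others. Leaving out transgenic high-fat replicate 3, the lowest library, gave -0.59 with an adjusted p of 0.149. In the authors' deposited DESeq2 table of the same comparison, Oasl2 had a log2 fold change of -0.80 and an adjusted p of 0.0190. It was the 1 gene of the 43 below 0.05, where 1605 of 16245 genes were. For diet in wild-type tissue their table had 0 of 43 below 0.05 (1011 of 16916 genes). Their transgene tables gave an adjusted p to 42 of the 43 on control diet and 39 on high-fat diet. In these, 0 members were below 0.05, against 151 of 16025 and 73 of 13166 genes.

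Ifit1 and Oas3 had the smallest p-values of the 43 genes for the interaction. Ifit1, whose product binds RNA that lacks the cap methylation of the host, stood at 3.10, 3.71 and 3.70 CPM in wild-type control and 4.16, 5.67 and 6.17 CPM in wild-type high-fat tissue, where the groups did not overlap. In transgenic tissue it stood at 6.80, 11.4 and 2.98 CPM on control and 2.59, 6.76 and 1.94 CPM on high-fat diet, with wide overlap, and the interaction was -1.50 (SE 0.67, adjusted p = 0.864). Oas3, a sensor of double-stranded RNA, had so few counts that they are given as such: 4, 6 and 1 in wild-type control, 10, 26 and 12 in wild-type high-fat, 5, 26 and 5 in transgenic control and 7, 8 and 3 in transgenic high-fat tissue. Both libraries with 26 counts of Oas3 are among the 3 where most of the genes were highest. Its interaction of -3.02 (SE 1.09, adjusted p = 0.809) rests on these counts.

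Ifit2 was among the 3 genes with an unadjusted p below 0.05 for the transgene over both diets. It stood at 13, 15.2 and 18.6 CPM in wild-type control and 18.2, 17.6 and 14.5 CPM in wild-type high-fat tissue, against 11.6, 11.9 and 11.4 CPM in transgenic control and 10.6, 19.0 and 10.1 CPM in transgenic high-fat tissue. All but transgenic high-fat replicate 2 of the 6 transgenic libraries lay below all 6 wild-type libraries, and the difference over both diets was -0.39 (SE 0.16, adjusted p = 0.356). Eif2ak2 was the steadiest of the 43, from 21.9 to 28.7 CPM over the 12 libraries, and its log2 fold change for diet over both genotypes was 0.02 with a 95% interval of -0.15 to 0.19.

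**Figure D5:**
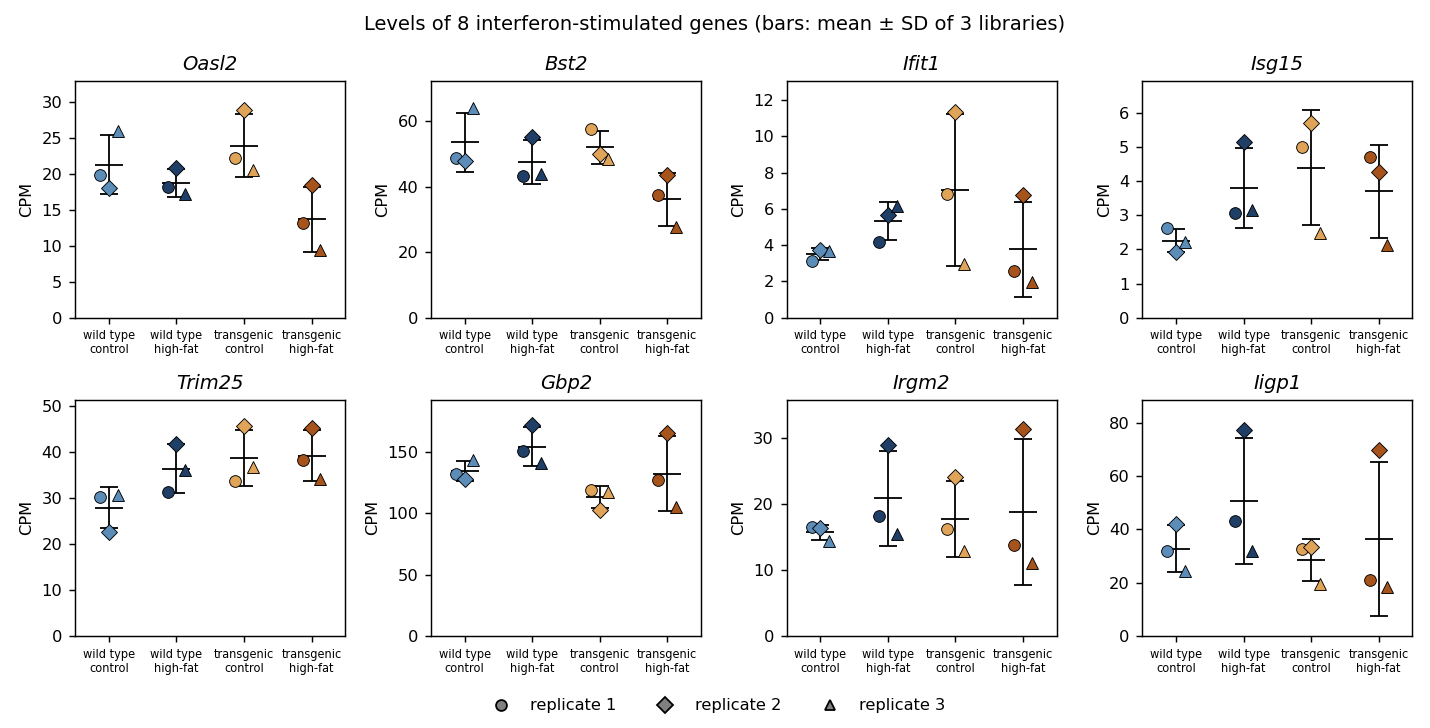
CPM of 8 of the genes in each library by group, with the mean and SD of 3 libraries as bars and the replicate number as the symbol; axes start at 0. Oasl2 in transgenic high-fat tissue lies at 13.1, 18.5 and 9.47 CPM, below the transgenic control libraries, and Iigp1 reaches 77.2 and 69.7 CPM in replicate 2 of the high-fat groups.

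The cytosolic RNA sensors were among the more stable genes. Ddx58, which encodes RIG-I, averaged 33.0 ± 2.24 CPM (SD, n = 3) in wild-type control, 33.3 ± 3.17 in wild-type high-fat, 35.1 ± 5.46 in transgenic control and 31.0 ± 2.95 in transgenic high-fat tissue. Those means differed by less than the largest spread within a group. Dhx58, which encodes the RIG-I-like regulator LGP2, had a log2 fold change of 0.24 for diet over both genotypes (adjusted p = 0.303) and -0.02 for the transgene (adjusted p = 0.975). No RNA sensor was called in any comparison.

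Among the other antiviral genes, Bst2 (chr8:71534255-71537456) came closest to a call beside Oasl2. It stood at 48.9, 47.9 and 63.9 CPM in wild-type control and 43.4, 55.2 and 43.9 CPM in wild-type high-fat tissue, and at 57.8, 50.1 and 48.4 CPM in transgenic control and 37.4, 43.5 and 27.6 CPM in transgenic high-fat tissue. The transgenic groups did not overlap and the wild-type groups did. The summed mesothelial genes, like Bst2, were lower in every transgenic high-fat library than in every transgenic control library and lowest in transgenic high-fat replicate 3, and their part in the values of Bst2 was not tested. For diet in transgenic tissue the edgeR values of Bst2 were log2 fold change -0.53, SE 0.17, adjusted p = 0.0739. DESeq2 as run here called Bst2, while the authors' deposited DESeq2 result gave it an adjusted p of 0.0550. For the transgene on the high-fat diet Bst2 had the smallest p of the 43 genes (log2 fold change -0.39, SE 0.17, adjusted p = 0.714). Lgals3bp went the other way in transgenic tissue, with 210.2, 265 and 258 CPM on control and 288, 321 and 283 CPM on high-fat diet and no overlap (log2 fold change 0.28, SE 0.13, adjusted p = 0.192). Mx2, a dynamin-like GTPase gene annotated as a polymorphic pseudogene, was low, with 12, 13 and 15 counts in wild-type control, 22, 38 and 29 in wild-type high-fat, 31, 42 and 11 in transgenic control and 27, 35 and 27 in transgenic high-fat tissue. Those counts gave log2 fold change 1.06, SE 0.44, adjusted p = 0.234 for diet in wild-type tissue and log2 fold change 1.11, SE 0.44, adjusted p = 0.380 for the transgene on control diet.

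The ISG15 system attaches the ubiquitin-like protein ISG15 to other proteins and removes it. Isg15 stood at 2.62, 1.93 and 2.22 CPM in wild-type control and 3.07, 5.14 and 3.16 CPM in wild-type high-fat tissue. It stood at 5.01, 5.71 and 2.49 CPM in transgenic control and 4.70, 4.27 and 2.14 CPM in transgenic high-fat tissue, where replicate 3 of each lay within the range of the wild-type control libraries. The transgene difference on control diet was 0.96 (SE 0.36, adjusted p = 0.357). Trim25, the ubiquitin ligase that assists RIG-I, had the smallest p of the 43 for that comparison (log2 fold change 0.47, SE 0.16, adjusted p = 0.319). Its wild-type control libraries, at 30.3, 22.7 and 30.7 CPM, lay below the 9 other libraries, which stood at 31.2, 41.8 and 36.2 CPM in wild-type high-fat, 33.7, 45.5 and 36.6 CPM in transgenic control and 38.3, 45.2 and 34.1 CPM in transgenic high-fat tissue. None of the 4 genes of this system was called.

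The guanylate-binding proteins and immunity-related GTPases, which attack the vacuoles of intracellular microbes, showed large differences between libraries of a group. Gbp2 stood at 132, 127 and 143 CPM in wild-type control and 150.3, 171 and 141 CPM in wild-type high-fat tissue, and at 119, 103 and 117 CPM in transgenic control and 127, 165 and 105 CPM in transgenic high-fat tissue. On the control diet the transgenic libraries all lay below the wild-type ones, and over both diets the difference was -0.23 (SE 0.10, adjusted p = 0.393). Gbp3 had a log2 fold change of 0.44 for diet over both genotypes (SE 0.20, adjusted p = 0.141). Iigp1 stood at 43.1, 77.2 and 32.0 CPM in wild-type high-fat and 21.1, 69.7 and 18.3 CPM in transgenic high-fat tissue, so that replicate 2 was far above the other libraries of each group. In the control groups it stood at 32.0, 42.2 and 24.3 CPM and 32.8, 33.3 and 19.4 CPM, in wild-type and transgenic tissue, and the diet difference over both genotypes was 0.49 (95% interval -0.23 to 1.21). Irgm2 followed the same libraries, with 18.1, 28.9 and 15.4 CPM in wild-type high-fat, 16.1, 24 and 12.8 CPM in transgenic control and 13.8, 31.3 and 11.1 CPM in transgenic high-fat tissue, against 16.4, 16.3 and 14.3 CPM in wild-type control tissue.

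Of the antigen-processing genes, Psmb8, an immunoproteasome subunit gene, averaged 56.6 ± 5.77 CPM (SD, n = 3) in wild-type control, 56.4 ± 11.3 in wild-type high-fat, 46.9 ± 7.06 in transgenic control and 53.6 ± 9.29 in transgenic high-fat tissue. Neither it nor Tap1, the peptide transporter gene, nor Psmb9 was called in any comparison. On a wider list of 14 genes of the class I pathway, 2 were called higher with the diet in transgenic tissue, where 8.73% of all tested genes were called. These were Nlrc5 (log2 fold change 0.68, SE 0.15, adjusted p = 0.0206), the class I transactivator gene, and Tapbp (log2 fold change 0.36, SE 0.10, adjusted p = 0.0458), while 0 of the 14 were called in wild-type tissue (1.14% of all).

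Other interferon-inducible genes passed the test for diet, in both directions. Of 41 listed genes outside the set, 4 rose and 3 fell in transgenic tissue, where 8.73% of all tested genes were called, and 1 rose in wild-type tissue, where 1.14% were. Cxcl10, a chemokine gene induced by interferon gamma, rose in both genotypes, from 1.13 ± 0.201 to 3.19 ± 0.365 CPM (SD, n = 3) in wild-type tissue (log2 fold change 1.49, SE 0.29, adjusted p = 0.0371). Its transgenic libraries went from 0.871 ± 0.230 to 2.05 ± 0.631 CPM (log2 fold change 1.24, SE 0.30, adjusted p = 0.0268). Cxcl9, Epsti1 and Ifi209 rose in transgenic tissue, by 1.40, 0.75 and 1.06 on the log2 scale. Isg20, an RNA exonuclease gene, fell there from 18, 16 and 15.9 to 9.78, 10.4 and 8.87 CPM (log2 fold change -0.78, SE 0.11, adjusted p = 0.00285), and Ifi205 (-1.15) and Apol9a (-1.23) fell with it. On the list of sensors and their transcription factors, Irf8, a factor of myeloid and dendritic cells, rose in wild-type tissue from 14.6, 16.4 and 15.2 to 29.1, 31.4 and 35.2 CPM (log2 fold change 1.05, SE 0.19, adjusted p = 0.0299). It went from 10.5, 8.27 and 14.4 to 29.3, 23.1 and 36.1 CPM in transgenic tissue (log2 fold change 1.41, SE 0.20, adjusted p = 0.00258). The median of the 41 genes was 0.19 in wild-type and 0.08 in transgenic tissue.

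Dendritic cell genes moved with these diet calls: of 10 listed, 2 rose in wild-type tissue (Cd74 and Itgax), where 1.14% of all tested genes were called, and 4 in transgenic tissue (8.73% of all), with Flt3 and H2-Ab1 added. Their summed level was 303 to 379 CPM in wild-type control, 571 to 666 CPM in wild-type high-fat, 183 to 281 CPM in transgenic control and 642 to 861 CPM in transgenic high-fat tissue, with no overlap between diets in either genotype. By contrast, the summed level of the 43 interferon-stimulated genes was 1129 ± 51.1 CPM (SD, n = 3) in wild-type control and 1266 ± 215 CPM in wild-type high-fat tissue, and 1144 ± 76.6 CPM in transgenic control and 1179 ± 247 CPM in transgenic high-fat tissue, with overlap between diets in both. Of 12 macrophage genes, 6 were positive for diet in wild-type tissue, with Mpeg1 called. In transgenic tissue 9 of the 12 were positive, with Cd68, Itgam and Mpeg1 called. All 13 T and NK cell genes tested were positive in both genotypes, with 0 called in wild-type and 1 (Cd3d) in transgenic tissue. Of 5 B cell genes tested, 0 were positive in wild-type and 5 in transgenic tissue, with 0 called. The part of dendritic or other immune cells in the diet calls was not tested.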

How the data were processed

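RNA from visceral fat was measured in 12 libraries. The submitters' processing notes name the mm10 build, the aligner HISAT2 2.2.0, the counter HTSeq 2.0 and, for testing, DESeq2 1.32.0. Annotation and strand setting: not given in the sources used here. The authors deposited whole-number counts per gene, not normalized, with 5 summary entries that were left out (16.8% to 21.0% of reads). They also deposited a log2 fold change and a p-value with its adjusted value per gene for each pairwise comparison, used here only where named.

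Counts were tested with edgeR 4.0.16 in R 4.3.3. The filterByExpr function (minimum count 10, minimum total 15) kept 16550 genes, TMM factors scaled libraries, and 1 mean per group was fitted to the 12 libraries (8 residual degrees of freedom, biological coefficient of variation 20.1%) for quasi-likelihood F tests. Benjamini-Hochberg adjustment ran over the 16550 genes, and an adjusted p below 0.05 was a call. A standard error is the log2 fold change divided by the square root of F. CPM values were scaled by the TMM factors, and deviations within groups used log2 CPM with a prior count of 2. The script was tested on simulated data. No pair of libraries matched within counting noise (lowest chi-square 20.6 per degree of freedom).

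The genes and lists were chosen with earlier results of these data known. Described in full are the called genes of each comparison, or the 3 with the smallest p where none was called, and in each role the most abundant gene and those with the smallest p for diet and transgene. Coordinates, exon lengths and overlaps come from GENCODE on the same assembly, and promoters from RefSeq on GRCm38.p6. Alternatives were DESeq2 1.42.0, voom from limma 3.58.1, RLE and upper-quartile factors, no filter, the libraries of a comparison alone, the replicate number as a block, and libraries left out singly or together.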

Additional observations from a re-analysis of the deposited data

How the results depend on the processing

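Oasl2, the 1 called gene, was lower on the high-fat diet under every alternative tried, in transgenic tissue and over both genotypes. The median change of the 43 genes was less steady. Leaving out 1 library at a time, it ran from 0.10 to 0.33 for diet in wild-type tissue, -0.22 to 0.12 for diet in transgenic tissue, 0.04 to 0.20 for diet over both genotypes, -0.01 to 0.20 for the transgene on control diet, -0.34 to 0.05 for the transgene on high-fat diet, -0.09 to 0.09 for the transgene over both diets and -0.49 to -0.06 for the interaction. The number of the 43 at an unadjusted p below 0.05 ran, in the same order, from 1 to 7, 2 to 6, 2 to 9, 0 to 8, 0 to 13, 0 to 6 and 0 to 10. The share of all tested genes at that threshold was not counted in these fits, so the ranges cannot be set against it. The count of called genes stayed at 0 under every alternative for diet in wild-type tissue, the 3 transgene comparisons and the interaction. For the transgene on the high-fat diet, the 0 of DESeq2 covers only the few genes to which it gave an adjusted p. For diet in transgenic tissue the count of 1 became 2 with DESeq2 and 2 with no filter beyond 1 count (Oasl2 and Bst2), and 0 with limma-voom, 0 with the libraries of the comparison alone, 0 without the 2 libraries rich in epithelial genes and 0 without the 2 rich in muscle genes. For diet over both genotypes it became 2 with DESeq2 and 2 with no filter (Oasl2 and Bst2), and 0 with limma-voom, 0 with upper-quartile factors, 0 without the epithelial-rich and 0 without the muscle-rich libraries. Leaving out 1 library at a time gave 0 to 1 calls for diet in transgenic tissue and 0 to 2 over both genotypes; Oasl2 was called in 3 and 2 of these 12 fits, and without transgenic high-fat replicate 3 the call over both genotypes was Gbp3. An alternative chosen after seeing the data, by the values of these genes themselves, left out wild-type high-fat, transgenic control and transgenic high-fat replicate 2 together: 1 gene was then called for diet in transgenic tissue (Irf1) and 2 over both genotypes (Oasl2 and Bst2), with a median of -0.03 over both genotypes against 0.10 with all libraries. It took out the lowest transgenic control and the highest transgenic high-fat library of Irf1, so that call depends on the choice of libraries. The cause of these changes was not tested, apart from the smaller number of libraries where some were left out.

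The log2 fold change of Oasl2 ran from -1.07 to -0.59 in transgenic tissue over 22 alternatives, 8 of which called it. Over both genotypes it ran from -0.63 to -0.38 over 21, 7 of which called it. Both sets include the alternative chosen by the values of these genes, which was among the 7 and not among the 8. With the replicate block the count was 1 for diet in transgenic tissue and 1 over both genotypes, Oasl2 each time, and 0 in the other 5 comparisons. The labels do not say that a replicate number marks a shared step, and over all tested genes same-numbered libraries of different groups had correlations from -0.11 to 0.27 (18 pairs), so the main analysis was left unpaired. Over all genes the block moved the calls from 1445 to 1087 for diet in transgenic tissue and from 188 to 99 in wild-type tissue. Over all genes, other tools moved the calls for diet in wild-type tissue from 188 to 851 with DESeq2, 699 with limma-voom and 683 with no filter. With 3 libraries per group, 16 of the 43 genes had an interval for diet in wild-type tissue that reached beyond 2-fold, and Oas3 and Mx1 rested on a few counts per library.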
